A study of Homo sapiens with 6 samples.

Results

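This account covers 10 genes of the unfolded protein response and of ER-associated degradation (ERAD) in human endothelial cells given EPC-Exos. The genes are ERN1, ATF6, XBP1, HYOU1, PDIA4, SDF2L1, CRELD2, EDEM1, SYVN1 and HERPUD1. They were chosen by symbol, and every probe set that the platform annotation assigns to 1 of these symbols alone was taken. That gave 32 of the 44988 probe sets with a single gene symbol, and 10 of the 18132 genes such probe sets represent.

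The cells were HMEC-1, a human line of dermal microvascular endothelium made to grow without limit by a viral oncoprotein, cultured in serum-free medium. The first group, 3 arrays, had received EPC-Exos at 1e+11 particles per mL over 24 hours, and the second group, 3 arrays, had received PBS in the same volume. The labels do not spell out EPC-Exos, which in this study stands for exosomes from endothelial progenitor cells. Both groups are 1 immortalised line. The labels do not say whether the 3 samples of a group were separate cultures, so every p-value here reflects array-to-array spread, possibly technical.

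Proteins bound for the cell surface or for secretion fold in the endoplasmic reticulum (ER). When unfolded protein builds up there, the membrane sensors IRE1 (encoded by ERN1), ATF6 and PERK (encoded by EIF2AK3) switch on the unfolded protein response. IRE1 splices the messenger RNA of XBP1, ATF6 is cut by the Golgi proteases that also release the SREBP lipid regulators, and PERK slows translation. The transcription factors made in this way raise chaperones, disulphide-forming enzymes and the ERAD machinery, which pulls misfolded proteins back into the cytosol for destruction. Endothelial cells secrete large amounts of matrix and coagulation proteins and depend on this system. The arrays measure RNA amounts toward the 3′ end of transcripts. They do not show the splicing of XBP1, the cutting of ATF6 or the kinase activity of PERK.

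Whole-array similarity was high. Arrays of the same group correlated at 0.997, and arrays of different groups correlated between 0.988 and 0.989. Median log2 signals lay between 6.25 and 6.34. The identity of the cells was read from 12 endothelial marker genes. CDH5, TEK and CLDN5 lay at or below the background guide in both groups, which is the highest mean log2 signal of the Tag control probe sets, 4.97. The other 9 markers had mean log2 signals from 5.18, for PECAM1 with PBS, up to 9.96, for ENG after EPC-Exos. Of them PECAM1, ERG, KDR and VWF lay not far above that guide. Their means were 5.23, 5.60, 6.06 and 6.13 with EPC-Exos and 5.18, 5.42, 5.84 and 6.03 with PBS. Of the 9 markers 4 rose, namely TIE1, ENG, FLI1 and ESAM. The summed log2 signal of the 12 was between 76.36 and 77.34 on the EPC-Exos arrays, against 72.52 to 74.53 on the PBS arrays. Among 7 fibroblast and mural cell markers, 4 fell after EPC-Exos, namely PDGFRB, DCN, LUM and COL1A1. The summed log2 signal of the 7 was between 39.68 and 40.57 on the EPC-Exos arrays, against 45.93 to 46.42 on the PBS arrays, with PDGFRA and COL1A2 at background in both groups. No scan date or other batch was given in the labels, so batch and treatment cannot be told apart. Of 7 leukocyte markers on the array, 5 were at background in both groups, PTPRC among them. CD68, a lysosomal protein of macrophages, was well above background, at a mean log2 signal of 8.47 with EPC-Exos and 7.73 with PBS, and rose by 0.74 (limma adjusted p = 2.29e-07 in the fit without the filter). Of 5 epithelial markers KRT18 had mean log2 signals of 11.82 with EPC-Exos and 12.53 with PBS, above every endothelial marker read. KRT8 had means of 9.88 and 10.10, and CDH1 and KRT19 were at background in both groups. Marker calls came from the fit without the filter, where 2605 of 18132 genes were called higher and 3260 lower. The part of these markers in the results was not tested.

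The promoter windows of 5 of the 10 genes carried at least 1 of 3 short motifs linked to the unfolded protein response, and these windows are shown because they hold genes that rose, a gene that fell and genes that did not pass the test. The motifs searched on both strands were ERSE (CCAAT, any 9 bases, CCACG), ERSE-II (ATTGG, any 1 base, CCACG) and a UPRE-like core (TGACG followed by TGG). Each line gives the 200 bases before the annotated start of the gene, from RefSeq on GRCh38.p14, in the gene's own direction, with the motif in capitals.
XBP1, chr22:28800570-28800769, minus strand: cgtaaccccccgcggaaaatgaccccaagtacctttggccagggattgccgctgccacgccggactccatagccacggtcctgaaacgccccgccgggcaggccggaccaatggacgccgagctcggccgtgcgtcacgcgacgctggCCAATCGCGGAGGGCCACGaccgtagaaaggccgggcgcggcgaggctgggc
CRELD2, chr22:49918434-49918633, plus strand: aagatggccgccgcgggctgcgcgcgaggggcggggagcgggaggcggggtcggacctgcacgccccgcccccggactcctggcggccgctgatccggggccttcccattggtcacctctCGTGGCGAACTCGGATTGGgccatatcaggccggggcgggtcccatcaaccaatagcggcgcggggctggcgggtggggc
HYOU1, chr11:119057206-119057405, minus strand: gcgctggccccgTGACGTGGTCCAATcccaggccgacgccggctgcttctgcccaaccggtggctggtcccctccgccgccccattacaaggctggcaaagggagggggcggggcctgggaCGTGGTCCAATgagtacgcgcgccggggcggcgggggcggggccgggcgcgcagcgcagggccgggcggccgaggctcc
SDF2L1, chr22:21642102-21642301, plus strand: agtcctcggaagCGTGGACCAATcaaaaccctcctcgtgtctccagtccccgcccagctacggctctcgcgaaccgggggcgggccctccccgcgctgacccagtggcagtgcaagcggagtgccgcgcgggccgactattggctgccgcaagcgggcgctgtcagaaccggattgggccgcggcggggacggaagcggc
HERPUD1, chr16:56931942-56932141, plus strand: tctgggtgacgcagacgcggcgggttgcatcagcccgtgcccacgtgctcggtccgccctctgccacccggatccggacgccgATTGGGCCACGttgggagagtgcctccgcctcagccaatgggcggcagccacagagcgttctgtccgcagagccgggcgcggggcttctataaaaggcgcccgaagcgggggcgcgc

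In XBP1 the capitals are an ERSE on the gene's strand, and in CRELD2 they are an ERSE read on the opposite strand. HYOU1 held 2 copies of ERSE-II on the opposite strand, and the one farther from the start overlapped the UPRE-like core, so that their capitals run together. SDF2L1 held 1 ERSE-II on the opposite strand, and HERPUD1 held 1 on its own strand. The search covered 250 bases before to 50 after each start. ERSE was found in 27 of 35116 such windows (0.0769%), ERSE-II in 19 (0.0541%) and the UPRE-like core in 256 (0.729%). Among the 12 windows of the 10 genes, ERSE was found in 2, ERSE-II in 3 and the UPRE-like core in 1. A match describes letters only, and binding of a factor was not measured.

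The 10 genes did not move together. After EPC-Exos, SDF2L1, HYOU1 and PDIA4, which help proteins fold, rose, while SYVN1 and HERPUD1, which act in ERAD, fell. The largest of these changes were 1.40-fold, up for SDF2L1 and down for SYVN1. ATF6, XBP1, CRELD2 and EDEM1 did not pass the test, and ERN1 lay below the signal filter. Of 9 genes that passed the filter, a mean log2 signal of at least 5.45, limma called 3 higher and 2 lower at a Benjamini-Hochberg adjusted p under 0.05 over all 11715 genes tested. Over all genes tested 49.1% were called, 21.7% higher and 27.3% lower, so the 5 calls among 9 are close to that background. With EPC-Exos replicate 2 left out 1 of the 9 was called higher. The all-gene split depended on scaling, with 2545 higher and 3203 lower as deposited and 3249 higher and 2670 lower when each array was centred on the median of the tested genes. In such bulk RNA, fewer cells that express a gene and less of its RNA per cell cannot be told apart.

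**Figure D1:**
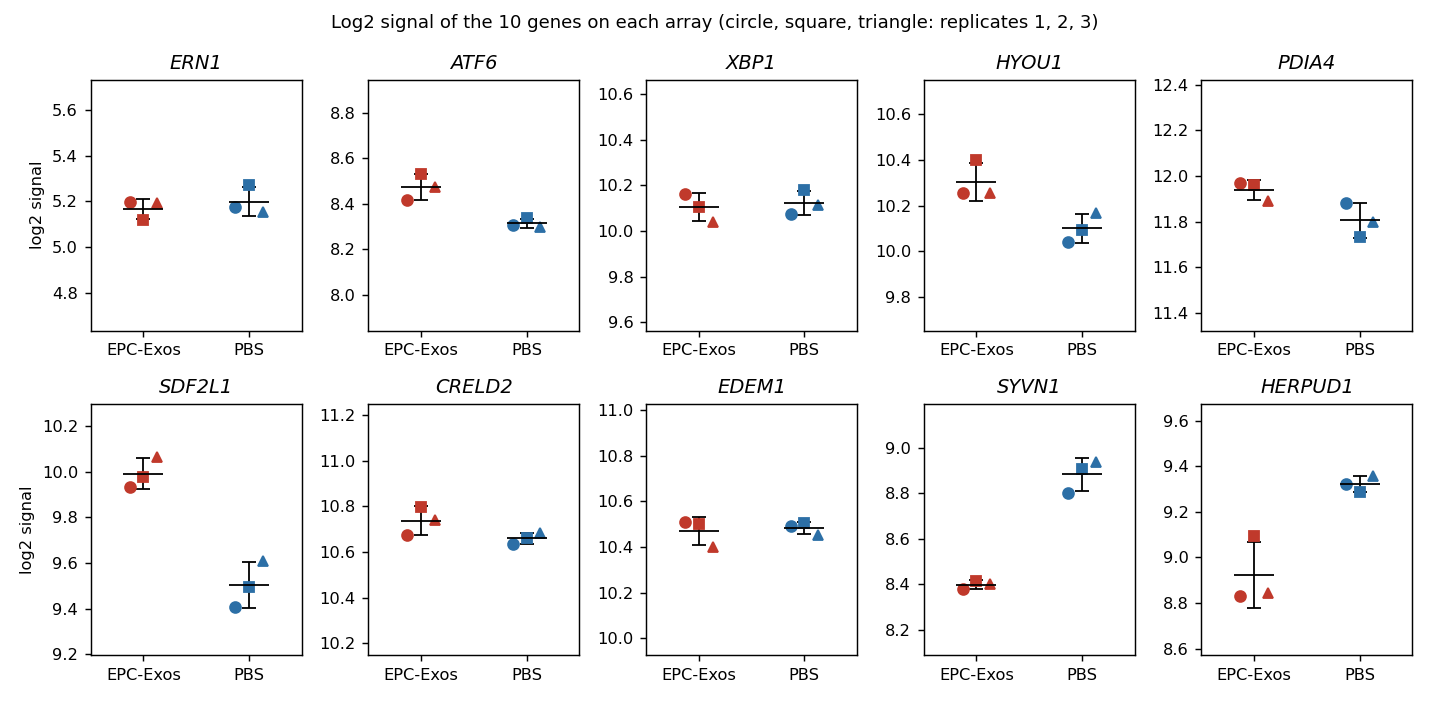
Log2 signal of each of the 10 genes on the 3 EPC-Exos arrays (red) and the 3 PBS arrays (blue), with the group mean and SD in black; every panel spans the same range of log2 signal. SDF2L1 sits higher and SYVN1 and HERPUD1 sit lower on all 3 EPC-Exos arrays, while the groups overlap for ERN1, XBP1, CRELD2 and EDEM1.

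No call was made for the sensors or for XBP1. ERN1, the gene of the IRE1 kinase and endonuclease, had log2 signals of 5.20, 5.12 and 5.19 with EPC-Exos, against 5.17, 5.27 and 5.15 with PBS. The groups overlapped, and both means lay just above the background guide. In the limma fit without the filter its log2 change was -0.03 (95% interval -0.25 to 0.19, adjusted p = 0.868). Its other probe set was at background in both groups, at a mean log2 signal of 3.96 with EPC-Exos and 3.89 with PBS.

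XBP1, which encodes the factor that IRE1 activates by splicing, had log2 signals of 10.16, 10.10 and 10.04 with EPC-Exos and 10.07, 10.18 and 10.11 with PBS. The groups overlapped. The log2 change was -0.02 (95% interval -0.14 to 0.10, limma adjusted p = 0.794), from 1 probe set. The spliced form of XBP1 RNA was not measured apart from the rest.

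ATF6, the sensor that becomes a transcription factor once cut, had log2 signals of 8.42, 8.53 and 8.47 with EPC-Exos, against 8.31, 8.34 and 8.30 with PBS. The EPC-Exos arrays all lay above the PBS arrays, but the log2 change of 0.16 ± 0.068 (SE) did not pass (limma adjusted p = 0.063). It passed in 6 of 17 alternative settings, among them quantile normalization (adjusted p = 0.0251) and centring on array medians (adjusted p = 0.0191). The other ATF6 probe sets had log2 changes of 0.02 ± 0.088 and 0.05 ± 0.081 (SE), and neither passed.

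Among the folding genes, SDF2L1 changed most. It encodes a small ER-resident partner of the chaperone BiP and is a known target of the response. Its log2 signal was 9.93, 9.98 and 10.06 with EPC-Exos, against 9.41, 9.49 and 9.61 with PBS. The groups were well apart, and the mean was 9.99 ± 0.068 with EPC-Exos and 9.50 ± 0.10 with PBS (SD, n = 3 each). The log2 change was 0.49 ± 0.063 (SE), a fold of 1.40 (limma adjusted p = 7.44e-06), and the call held in all 17 alternative settings of scaling, filter, probe set choice, variance model, block and left-out array. SDF2L1 is represented by 1 probe set, so no other probe set bears on it. The settings of probe set choice could therefore not change its value.

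HYOU1 encodes an ER relative of the HSP70 chaperones that assists BiP and is also raised by low oxygen. It had log2 signals of 10.26, 10.40 and 10.26 with EPC-Exos, against 10.04, 10.09 and 10.17 with PBS. No EPC-Exos array reached down to a PBS array, and replicate 2 was the highest of the EPC-Exos arrays. The log2 change was 0.20 ± 0.057 (SE), a fold of 1.15 (limma adjusted p = 0.00713). Without EPC-Exos replicate 2 it was 0.16 and the call was lost (adjusted p = 0.0547). HYOU1 has 9 probe sets, of which 5 were called higher and 4 not called in the fit over all probe sets, and their log2 changes ran from -0.0005 to 0.37. They share a target gene on the same arrays, so they are not independent readings.

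PDIA4, a protein disulphide isomerase also known as ERp72, had log2 signals of 11.97, 11.96 and 11.89 with EPC-Exos, against 11.88, 11.73 and 11.80 with PBS. The lowest EPC-Exos array and the highest PBS array were nearly level. The log2 change was 0.13 ± 0.043 (SE), a fold of 1.10 (limma adjusted p = 0.0173). All 3 probe sets of PDIA4 were called higher, with log2 changes from 0.13 to 0.19. The call on the brightest of them was lost without EPC-Exos replicate 1, EPC-Exos replicate 2 or PBS replicate 2 (adjusted p = 0.0774, 0.067 and 0.0966) and without the variance trend (adjusted p = 0.104).

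CRELD2, an ER-resident protein with disulphide isomerase activity that is a sensitive marker of ER stress in mouse and human cells, had log2 signals of 10.67, 10.80 and 10.74 with EPC-Exos and 10.63, 10.66 and 10.68 with PBS. The lowest EPC-Exos array fell inside the PBS range. The log2 change of 0.08 (95% interval -0.03 to 0.18) did not pass (limma adjusted p = 0.215). It passed only when arrays were centred on the median of the tested genes (log2 change 0.13, adjusted p = 0.0226).

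Of the 3 ERAD genes in the group 2 fell and 1 was not called. SYVN1 encodes HRD1, the ubiquitin ligase at the centre of the main ERAD channel. Its log2 signal was 8.38, 8.41 and 8.40 with EPC-Exos, against 8.80, 8.91 and 8.94 with PBS. The 3 EPC-Exos arrays were tightly grouped below every PBS array, with means of 8.40 ± 0.019 with EPC-Exos and 8.88 ± 0.071 with PBS (SD, n = 3 each). SYVN1 fell by 0.48 ± 0.066 (SE) on the log2 scale, 1.40-fold (limma adjusted p = 1.38e-05). A dimmer SYVN1 probe set, with a mean log2 signal of 5.47 with EPC-Exos and 5.54 with PBS, had a log2 change of -0.06 ± 0.12 and was not called. In the fit over all probe sets their 95% intervals did not overlap, at -0.63 to -0.34 for the brighter and -0.31 to 0.19 for the dimmer. The difference between them was not tested. With the mean of both probe sets the change was -0.27 and still called.

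HERPUD1 encodes HERP, an ER membrane protein that organises the HRD1 complex and is among the genes most responsive to ER stress. It had log2 signals of 8.83, 9.09 and 8.84 with EPC-Exos, against 9.32, 9.29 and 9.36 with PBS. All 3 EPC-Exos arrays lay below the PBS arrays, and replicate 2 lay closest to them. HERPUD1 fell by 0.40 ± 0.073 (SE) on the log2 scale, 1.32-fold (limma adjusted p = 0.000233). Of its 4 probe sets, 3 were called lower, with log2 changes between -0.45 and -0.40, and the fourth was at background in both groups.

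EDEM1, an ER mannosidase-like protein that hands misfolded glycoproteins to ERAD and is induced through XBP1, had log2 signals of 10.51, 10.50 and 10.40 with EPC-Exos and 10.49, 10.51 and 10.45 with PBS. The groups overlapped, and the log2 change was -0.01 (95% interval -0.12 to 0.09, limma adjusted p = 0.847). The 4 dimmer EDEM1 probe sets had changes between 0.07 and 0.33 that did not pass. The mean of all 5 gave 0.17 (limma adjusted p = 0.0546). The 95% intervals of the probe sets overlapped, and the difference between them was not tested.

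**Figure D2:**
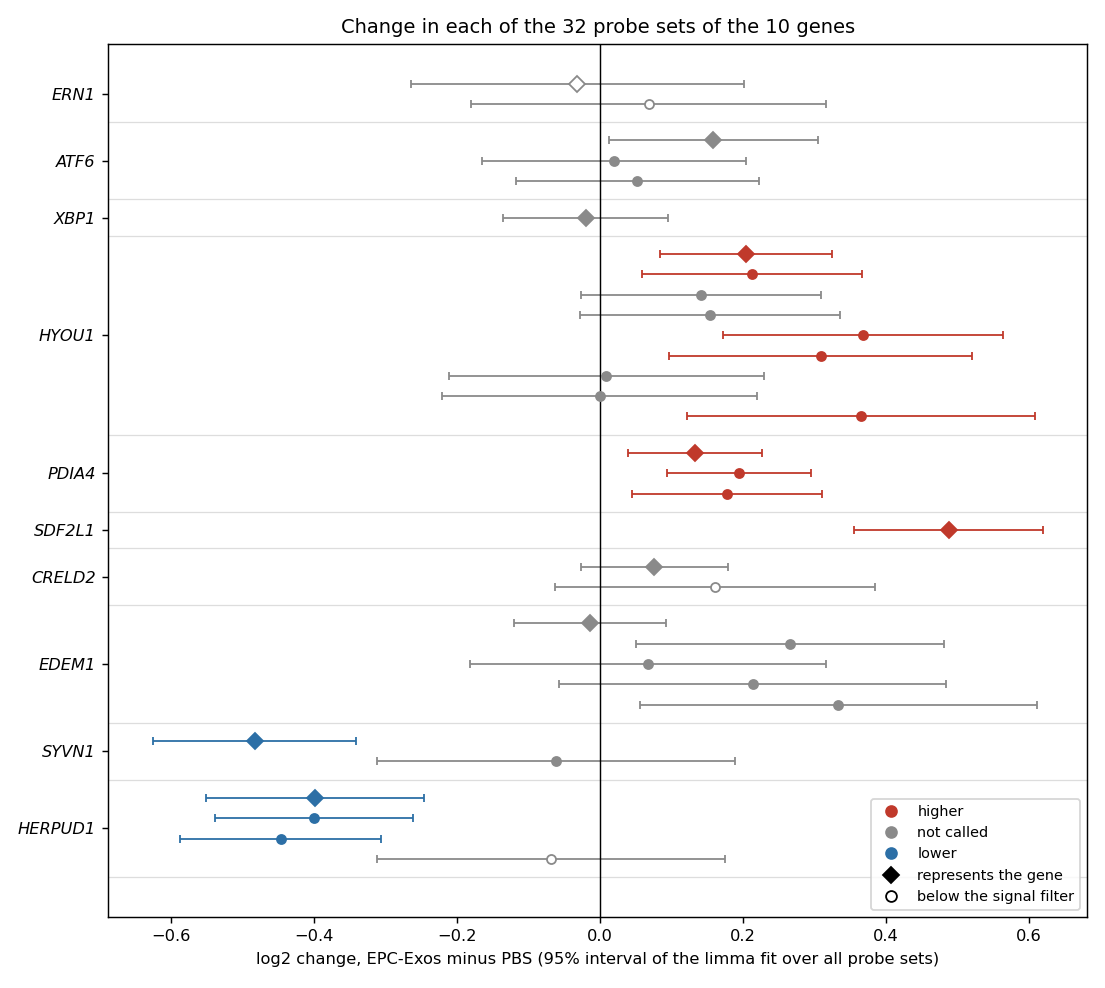
Log2 change, EPC-Exos minus PBS, of each of the 32 probe sets with its 95% interval from the limma fit over all probe sets; red and blue mark calls, diamonds the probe set that represents the gene, open symbols those below the signal filter. The 3 brighter HERPUD1 probe sets agree near -0.4, the 3 of PDIA4 lie between 0.13 and 0.19, and those of EDEM1 run from -0.01 to 0.33.

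Over the 32 probe sets, 9 were called higher, 4 lower and 19 not called, where 28.4% of all 49293 non-control probe sets were called, 13.6% higher and 14.8% lower. Of the 32, 28 lay above the signal filter, below which 40% of all non-control probe sets lay, so the sets are unlike in signal. The 9 higher calls came from HYOU1 (5), PDIA4 (3) and SDF2L1 (1), and the 4 lower ones from SYVN1 (1) and HERPUD1 (3). For no gene were probe sets called in opposite directions. The groups did not overlap in 6 of the 10 genes, 4 with EPC-Exos above and 2 with EPC-Exos below. Of all genes tested 55.7% did not overlap, 25.5% with EPC-Exos above and 30.2% with EPC-Exos below.

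The sizes of these changes were also set against those of all genes tested. The submitters took genes past a 1.5-fold change at p under 0.05, unadjusted. The labels name no test, so limma's unadjusted p was used here, on the brightest probe set of each gene. Of all genes tested 9.89% passed the threshold in this form, and none of the 10 did. Among all genes 3.94% were higher by 1.5-fold or more with an adjusted p under 0.05. By absolute log2 change SDF2L1 stood at percentile 85.8 of all genes tested, SYVN1 at percentile 85.6 and HERPUD1 at percentile 79.5. HYOU1 stood at percentile 55.2, ATF6 at 45.4, PDIA4 at 39.8, CRELD2 at 24, XBP1 at 6.41 and EDEM1 at 4.40. When limma tested against a fold of 1.2 instead of no change, SDF2L1 and SYVN1 were called (adjusted p = 0.0107 and 0.0164) and HERPUD1 was not (adjusted p = 0.201).

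**Figure D3:**
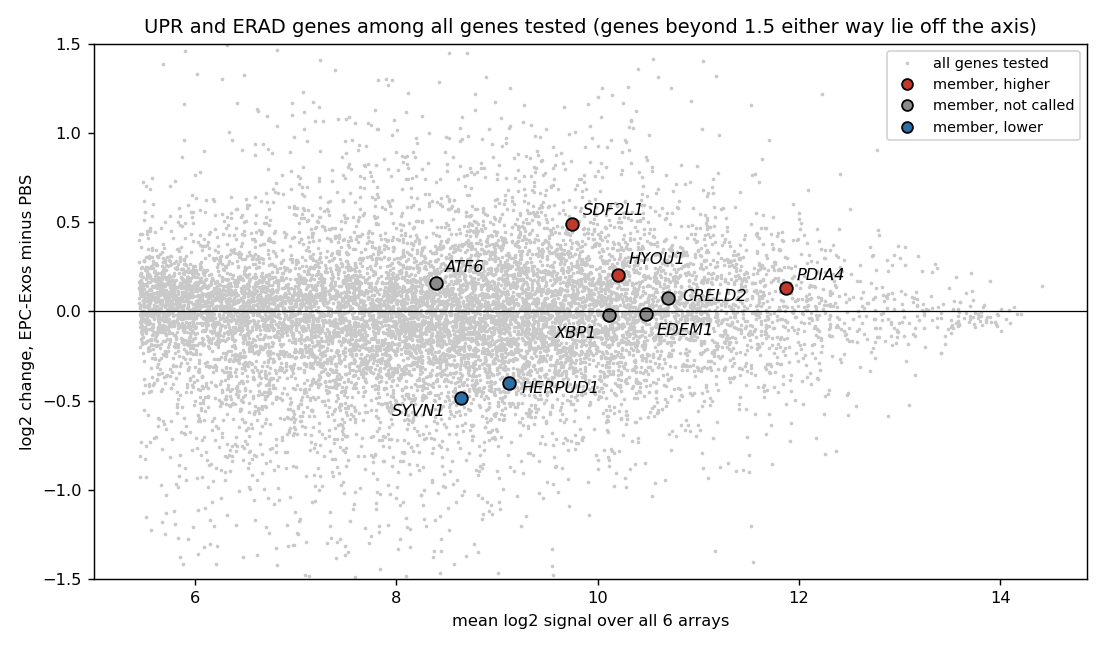
Log2 change, EPC-Exos minus PBS, against the mean log2 signal over all 6 arrays for all genes tested (grey) and for the 9 tested genes of the group (coloured by call). SDF2L1, SYVN1 and HERPUD1 lie farthest from 0 of the 9, XBP1 and EDEM1 lie close to it, and 104 other genes lie beyond the axis.

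**Figure D4:**
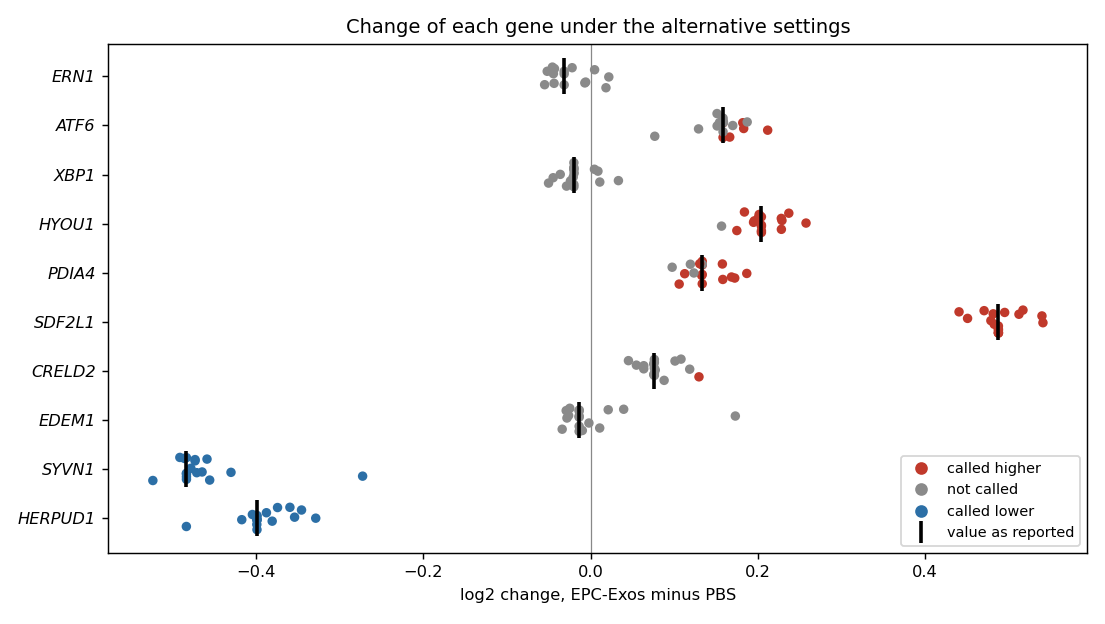
Log2 change, EPC-Exos minus PBS, of each of the 10 genes under each alternative setting of scaling, filter, probe set choice, variance model, block or left-out array (points, coloured by call), with the reported value as a black bar. SDF2L1 stays between 0.44 and 0.54 and HERPUD1 between -0.48 and -0.33, while the calls on ATF6, HYOU1, PDIA4 and CRELD2 depend on the setting.

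The rest of the pathway was read from 7 lists of 142 genes. Of these, 136 had a probe set of their own on the array, and all 136 passed the signal filter. The lists were written with earlier results of these data known, so their shares are a description only. Over these lists 33 genes rose, 39 fell and 64 were not called, and the median log2 change was 0.0049, against -0.01 over all genes tested. That is 24.3% higher and 28.7% lower, close to the 21.7% and 27.3% of all genes tested.

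Of 13 further sensors and regulators 2 rose, 6 fell and 5 were not called, and the median log2 change was -0.11. The shares were 15.4% higher and 46.2% lower, beside 21.7% and 27.3% of all genes tested. The ER stress transducer CREB3L2 fell most (-0.62 ± 0.052). MBTPS1, the Golgi site-1 protease that cuts both ATF6 and the SREBPs, changed by -0.56 ± 0.057. NFYB, a subunit of the CCAAT-binding factor that helps ATF6 bind ERSE, changed by -0.40 ± 0.061 and EIF2AK3, which encodes PERK, by -0.32 ± 0.072. Of the other subunit genes of the CCAAT-binding factor, NFYC fell (-0.30 ± 0.070) and NFYA rose (0.26 ± 0.066). Errors are limma's SE here and below. Without probe sets of the _x_at and _s_at kinds, which can match transcripts of other genes, 3 of the list fell. With the mean of the probe sets of a gene 1 rose.

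Of 28 other ER chaperones and folding enzymes 12 rose, 4 fell and 12 were not called, and the median log2 change was 0.11. In shares, 42.9% were higher and 14.3% lower, where all genes tested had 21.7% and 27.3%. The number called higher was 8 without the variance trend, without EPC-Exos replicate 1 or without PBS replicate 2. It was 15 with centring on the median of the tested genes, and 1 in the test against a fold of 1.2. HSPA5, which encodes BiP, the master chaperone of the ER, had log2 signals of 13.07, 13.02 and 12.97 with EPC-Exos, against 12.72, 12.74 and 12.73 with PBS. The groups were clearly apart, and the log2 change was 0.29 ± 0.032 (limma adjusted p = 1.36e-06). HSP90B1, the ER form of HSP90, rose by 0.24 ± 0.040. The lectin chaperone gene CALR rose by 0.39 ± 0.072 and ERO1A, the oxidase that recharges disulphide isomerases and is also raised by low oxygen, by 0.71 ± 0.062. DNAJB9, an ER co-chaperone that restrains IRE1 and is induced through XBP1, went against them with log2 signals of 8.63, 8.65 and 8.60 with EPC-Exos and 9.16, 9.06 and 9.03 with PBS. DNAJB9 fell by 0.46 ± 0.065 (limma adjusted p = 1.81e-05), and ERO1B, the second ER oxidase, fell by 0.36 ± 0.097.

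Of 29 other ERAD genes 6 rose, 9 fell and 14 were not called, and the median log2 change was -0.07. With 20.7% higher and 31.0% lower, the ERAD list was close to the 21.7% and 27.3% of all genes tested. The lectins ERLEC1 (-0.56 ± 0.054) and OS9 (-0.47 ± 0.063), which pick out misfolded glycoproteins for HRD1, fell most, and DERL1, a channel component, changed by -0.35 ± 0.056. SEL1L, the obligate partner of HRD1, had log2 signals of 10.53, 10.52 and 10.41 with EPC-Exos, against 10.84, 10.65 and 10.91 with PBS. SEL1L fell by 0.32 ± 0.062 (limma adjusted p = 0.000469). The membrane ubiquitin ligase gene RNF5 rose (0.37 ± 0.12).

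Of 10 genes of the PERK and ATF4 branch 3 rose, 3 fell and 4 did not pass, which is 30% in each direction. ATF4, the transcription factor of the branch, had a log2 change of 0.03 ± 0.037 (limma adjusted p = 0.507), and DDIT3, which encodes the pro-death factor CHOP, one of -0.11 ± 0.11 (limma adjusted p = 0.458). ATF3 (-0.83 ± 0.094) and DDIT4 (-0.39 ± 0.053) fell, while CEBPB (0.47 ± 0.067) and PPP1R15A, which encodes the phosphatase subunit GADD34 (0.34 ± 0.081), rose. Without _x_at and _s_at probe sets 1 gene of the branch rose.

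Of 6 RNAs reported as direct substrates of the IRE1 endonuclease 5 fell and 1 was not called, and the median log2 change was -0.47. The 83.3% lower stand beside 27.3% of all genes tested. This short list was written with earlier results of these data known, so the contrast is a description only. BLOC1S1, the most widely used of these readouts, had a log2 change of -0.49 ± 0.069, COL6A1 one of -0.56 ± 0.060, SPARC one of -0.46 ± 0.041 and PDGFRB one of -1.29 ± 0.12. PDGFRB is also a mural cell marker, and COL6A1 and SPARC are matrix genes. On the same arrays 4 of the 7 fibroblast and mural markers given above fell, PDGFRB among them, and 3 were not called. Their part in this result was not tested.

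Of 28 translocon, signal peptidase and transport genes 6 rose, 8 fell and 14 did not pass, at 21.4% higher and 28.6% lower. SSR3, a translocon-associated subunit (0.77 ± 0.043), and LMAN1, a cargo receptor for glycoproteins (0.47 ± 0.080), rose, and KDELR3, a receptor that returns escaped ER proteins (-0.61 ± 0.059), and TRAM1 (-0.32 ± 0.046) fell. Of 22 N-glycosylation genes 4 rose, 4 fell and 14 did not pass, at 18.2% in each direction. DPAGT1, which starts the lipid-linked sugar chain, rose (0.50 ± 0.055), and the oligosaccharyltransferase subunit genes TUSC3 (-0.31 ± 0.056), OST4 (-0.25 ± 0.042) and MAGT1 (-0.24 ± 0.046) fell. The number of N-glycosylation genes called higher was 1 without EPC-Exos replicate 2, 2 without EPC-Exos replicate 3 or PBS replicate 2, and 7 with centring on the median of the tested genes. The same centring gave 10 transport genes called higher.

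**Figure D5:**
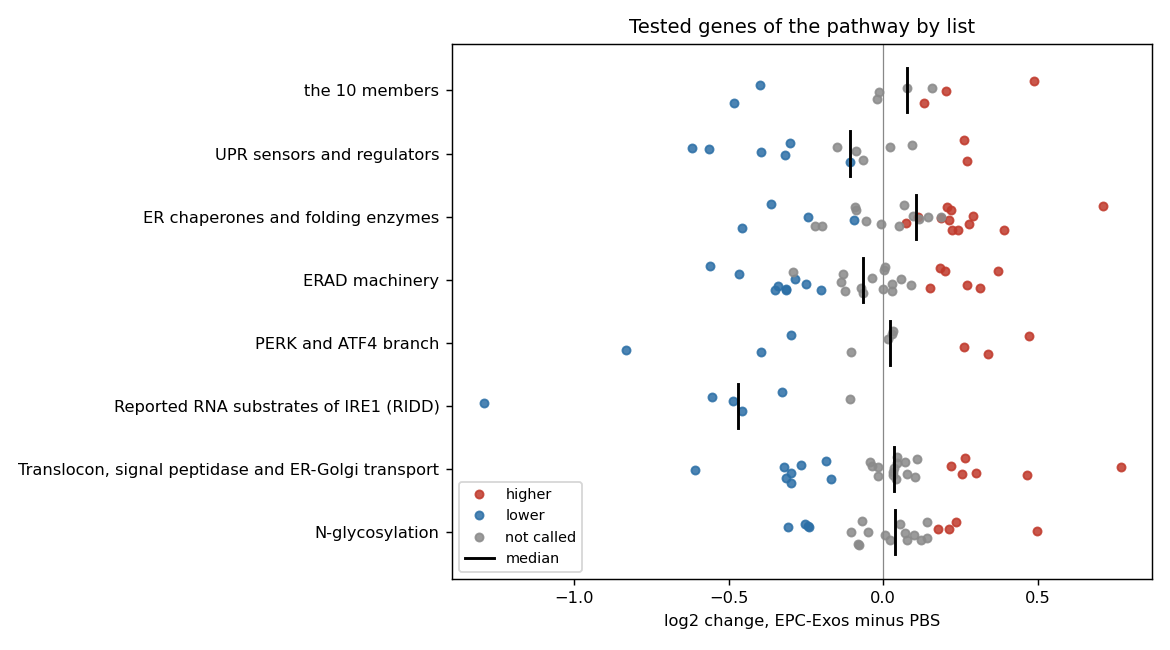
Log2 change, EPC-Exos minus PBS, of each tested gene (points, coloured by call) for the 10 genes and the 7 pathway lists, with the median as a black bar; vertical scatter has no meaning. The median of the chaperone list lies at 0.11, that of the ERAD list at -0.07 and that of the IRE1 substrate list at -0.47.

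The motif windows shown above did not go with 1 direction. SDF2L1 and HYOU1, with ERSE-II, rose, and HERPUD1, with ERSE-II, fell, while XBP1 and CRELD2, with ERSE, did not pass. Of 39 genes outside the group whose window held ERSE or ERSE-II, 25 were tested, of which 12 rose, 5 fell and 8 were not called, and the median log2 change was 0.10. Of all genes tested 21.7% were higher and 27.3% lower. Of the 39 genes 7 also stand in the pathway lists. HSPA5, HSP90B1 and CALR were among those that rose, and ERO1B among those that fell. For the UPRE-like core 110 genes were tested, HYOU1 among them, of which 17 rose, 39 fell and 54 were not called. Their median log2 change was -0.08. These counts were added after the values of the genes were known, and they are given as a description only.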

How the data were processed

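RNA of 6 HMEC-1 samples was labelled and hybridised to Affymetrix 3′ expression arrays. The table deposited by the authors holds log2 signals of 49395 probe sets, and MAS5 appears, without a role, per the submitters' processing notes. Background correction, summarisation and scaling are not given in the sources used here. The values were used as deposited, without further normalization. Control probe sets (102) were left out. Of all probe sets, 44988 had 1 gene symbol in the platform annotation, 1832 had several and 2473 had none. Each gene was represented by its probe set of highest mean signal, and 11715 of 18132 genes reached a mean of 5.45, the value below which 40% of non-control probe sets lay. The test was limma (version 3.58.1, lmFit and eBayes with trend, under R 4.3.3), with Benjamini-Hochberg adjustment over all genes tested and a threshold of 0.05. Array number limits the precision.

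The members and lists were chosen with earlier results of these data known. The genes named are all 10 members, the 4 called genes of largest change in each list, and HSPA5, HSP90B1, DNAJB9, SEL1L, DDIT3 and ATF4 as usual readouts. NFYA and NFYC were named beside NFYB as subunits of the same factor. List genes without a probe set of a single symbol were not analysed here. Further marker lists were read in the fit without the filter. Of 4 platelet markers 2 were at background in both groups. Of 5 epithelial markers KRT8 and KRT18 fell, and of 4 progenitor markers KIT fell. The fit was tested on simulated data of 11715 genes, of which 200 were changed. It recovered 59.7% of 67 genes changed 1.2-fold and 100% of 67 genes changed 1.5-fold, with 15 false calls. In the data 49.1% of genes were called, so these rates need not hold for this comparison. Promoter windows came from RefSeq tables.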

Additional observations from a re-analysis of the deposited data

How the results depend on the processing

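The calls on SDF2L1, SYVN1 and HERPUD1 held under each of 17 settings. The settings varied scaling, offset, filter, probe set choice, variance trend, replicate block and left-out array. Log2 changes were 0.44 to 0.54, -0.52 to -0.27 and -0.48 to -0.33, in that order. SDF2L1 has 1 probe set, so the settings of probe set choice could not change its value. For SYVN1 no setting used the dimmer, uncalled probe set alone. Stricter thresholds ended most calls. The 1.5-fold threshold with unadjusted p left 461 genes higher and 698 lower, 0 and 0 among the 10 genes, and 2 and 4 in the pathway lists. A test against a fold of 1.2 left 773 and 1068, 1 and 1, and 4 and 11. Centring on the median of the tested genes, chosen after seeing the data, gave 5 of the 10 genes higher, with ATF6 and CRELD2 added. Leaving out 1 array gave 1 to 3 higher, with 1 without EPC-Exos replicate 2. The sign of 3 uncalled genes turned. XBP1 was at 0.0047 with each array centred on its median, 0.0334 with centring on the tested genes, and -0.0502 to 0.0111 with an array left out. EDEM1 was at 0.011 and 0.0397 under those centrings, at 0.17 with the mean of its probe sets, and at -0.0339 to 0.0212 with an array left out. ERN1 was at 0.0219 with centring on the tested genes, 0.0185 with the mean of its probe sets, and -0.0549 to 0.0049 with an array left out. The cause was not tested. Whether the replicate numbers pair the arrays is not known, and the main fit used no pairing. The correlations of deviations for the same number were 0.20, 0.18 and 0.08. Those for different numbers ran from -0.19 to 0.02, so each array correlated best with its own number. With the replicate block, 2724 genes were higher and 3394 lower, 3 and 2 among the 10 genes and 38 and 41 in the lists. Signals near background limit ERN1, and 3 of the 32 probe sets were at background in both groups.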
